A study of Mus musculus with 22 samples.

Results

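The interaction of DNA methyltransferase loss with HP1 was read in 938 cassette-exon events out of 10873 in the series. A cassette exon is an internal exon that the mature transcript either includes or skips. The events were chosen by their reads in all 4 libraries compared. Each had at least 20 reads that distinguish inclusion from skipping, with at least 3 of each kind, in every library. The need for both kinds tends to leave out exons that are nearly always included or nearly always skipped. Of the 10873 events, 6195 were listed in all 4 libraries and 4344 had the 20 reads in all 4. The 938 lay in 706 genes and stood for 913 distinct exons, since some events share an exon. In no gene of the table lay 18 of them, and 17 lay in overlapping genes. Whether an exon is coding or untranslated was not annotated here. For each event the value is a difference of differences of the inclusion level, the share of a gene's transcripts with the exon: the triple knock-down minus untransfected difference in TKO cells, minus the same difference in WT cells. A value above 0 means that inclusion was higher in the TKO triple knock-down than the other 3 levels would add up to.

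Mouse embryonic stem (ES) cells of 2 lines were used, each group as 2 biological replicates that the authors pooled into 1 library. The TKO triple knock-down was made in TKO cells, which lack the DNA methyltransferases Dnmt1, Dnmt3a and Dnmt3b, with siRNA against HP1alpha at 80 nM, HP1beta at 80 nM and HP1gamma at 120 nM. The TKO group is the same line without transfection. The WT triple knock-down was made in R1 cells, the wild type, with the same 3 siRNAs at 60 nM each, and the WT group is untransfected R1. RNA was taken 48 h after transfection. The lines have different sources, so any other difference between them goes with the loss of methylation. TKO and WT were sequenced as 50-base single-end reads and both knock-downs as 101-base paired-end reads. Knock-down, transfection and library type cannot be told apart within a line, since no labelled group received a control siRNA. A shift of an exon's odds of inclusion that is the same in both lines cancels in the test used here. With 1 library per group there is no spread between replicates, and every test compares libraries, not conditions.

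DNA methylation of cytosines is written by Dnmt3a and Dnmt3b and copied at replication by Dnmt1. HP1alpha, HP1beta and HP1gamma, encoded by Cbx5, Cbx1 and Cbx3, bind methylated lysine 9 of histone H3 through a chromodomain. Chromatin marks over a gene body can affect which exons are joined, through the pace of transcription and through adaptor proteins that meet splicing factors. The comparison asks whether the splicing difference that comes with HP1 knock-down depends on DNA methyltransferases being present.

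Reads over exon events came to 7571677 in the TKO triple knock-down, 25200437 in TKO, 4677236 in the WT triple knock-down and 25941844 in WT. Over the 938 events the median number of distinguishing reads was 126, 273.5, 92 and 267 in the same order, and the median width of the deposited interval of the level was 0.11, 0.08, 0.13 and 0.07. Reads of the HP1 gene events, as RPM (reads of a gene's largest event per 1000000 event reads), differed little between the triple knock-downs for Cbx5, at 50.5 RPM in TKO cells and 56.2 RPM in WT cells, and for Cbx3, at 35.1 and 36.1 RPM. Cbx1 was higher in the TKO triple knock-down, at 1003 RPM against 551.2 RPM in the WT triple knock-down, a ratio of 1.82 with a counting interval of 1.74 to 1.90. Untransfected cells had 659.0 RPM of Cbx1 in TKO and 614.8 RPM in WT. The library labelled TKO triple knock-down thus had more Cbx1 reads than TKO, which is of another library type, and WT cells differed little. Whether HP1beta was lowered cannot be told from this pair. TKO triple knock-down stands throughout for the library so labelled. Single knock-downs of WT cells that targeted another HP1 gene had 110.1 and 104.8 RPM for Cbx5, 49.6 and 52.2 RPM for Cbx3, and 1522 and 1625 RPM for Cbx1, all above both triple knock-downs. Those that targeted the gene itself had 43.0 RPM for Cbx5, 32.2 RPM for Cbx3 and 507.3 RPM for Cbx1. For Cbx1 the WT triple knock-down was near that value and the TKO triple knock-down above it. Cbx3 was at 480.2 RPM in TKO and 457.2 RPM in WT, far above even the knock-downs that did not target it. A gap in RPM between a transfected and an untransfected library therefore does not measure the knock-down. The part of the gap in Cbx1 reads in the interaction was not tested. The largest Dnmt3b event had 79.6 RPM in the TKO triple knock-down against 228.8 RPM in the WT triple knock-down, a ratio of 0.348, and 88.1 RPM in TKO against 562.1 RPM in WT, a ratio of 0.157. Dnmt3a had 26.4 against 105.0 RPM under knock-down and 33.7 against 74.8 RPM without it. The labels do not say whether the deletions take in these exons, so this checks the lines only in part, and Dnmt1 was not analysed here. Of 10 pluripotency genes with an event, 8, 10, 9 and 10 were listed in the TKO triple knock-down, TKO, the WT triple knock-down and WT, with sums of 3048, 3160, 3992 and 3481 RPM that therefore cover different genes. Between the triple knock-downs, TKO over WT, the ratio was 0.495 for Klf4, 0.388 for Tbx3, 0.515 for Sall4 and 0.735 for Mybl2. For Tdh it was 0.924, for Trp53 0.978, for Zfp42 1.09 and for Tcl1 1.13. Without transfection these genes had 0.747, 0.970, 0.806, 0.847, 0.589, 1.06, 1.45 and 1.055, in that order. Of 4 differentiation markers with an event, 3, 4, 1 and 3 were listed in the same order, with sums of 91.0, 120.5, 25.7 and 31.3 RPM. Sox17 was listed in both TKO libraries and in neither WT library. Pax6 was listed in both TKO libraries and in WT, Dab2 in TKO and WT only, and Col4a1 in all 4. An event is listed only from 100 reads, so one that is not listed need not be at 0, and the part of these cells in the results was not tested. In bulk RNA, fewer cells of a type and less RNA per cell cannot be told apart.

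Among the 938 events the knock-down difference was lower in TKO cells than in WT cells more often than it was higher, which was not so over all events with the read minimum, and most values were small. Over the 938 events the difference of differences had a median of -0.01, quartiles of -0.07 and 0.03 and an SD of 0.107 across events. It was above 0 in 352 events, below 0 in 531 and 0 in 55. Over all 4344 events 1889 were above 0 and 1874 below, and over the 3406 that the choice of events left out 1537 were above 0 and 1343 below. A value of at least 0.1 was found in 102 events and of at most -0.1 in 160. Over all 4344 events with the read minimum the median was 0, with 377 at or above 0.1 and 478 at or below -0.1, and the median absolute value was 0.05 in the 938 and 0.03 in the 4344. On the scale of the reads, the median log2 ratio of the odds ratios was -0.21, with 377 events above 0 and 561 below. It was -0.014 over all 4344 events, with 2146 above 0 and 2197 below, and 0.064 over the 3406 left out, with 1769 above and 1636 below. Counted by sign, the lean toward lower values was thus found in the events chosen and not in those left out. Among larger values the 3406 leaned lower too, with 318 at or below -0.1 and 275 at or above 0.1. By the rule for a call given below, 29 of the 3406 were called lower and 14 higher. The sign of the level and of the reads differed in 196 events, but in only 8 of the 262 events with an absolute difference of differences of at least 0.1.

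An interaction was called where Zelen's two-sided exact test, which asks whether the odds ratios of both lines are equal, gave a Benjamini-Hochberg adjusted p of at most 0.05 over all 4344 events, the difference of differences was at least 0.1 in size, and reads and level had the same sign. Of the 938 events 27 were called, 2.88%, against 1.61% of all 4344. Of these, 20 were lower in the TKO triple knock-down than the other levels add up to, where 1.13% of the 4344 were called lower. The other 7 were higher, where 0.483% of the 4344 were called higher. The 938 had to hold both kinds of reads in every library, so the larger share goes with the rule that chose them. Their median level was 0.41 in TKO and 0.39 in WT, against 0.945 and 0.93 over all 4344. An unadjusted p of at most 0.05 was reached by 154 of the 938, 16.4%, and by 7.90% of the 4344. The adjusted p reached 0.05 in 47 events, of which 19 had too small a difference in level and 1 had reads and level of opposite sign.

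**Figure D1:**
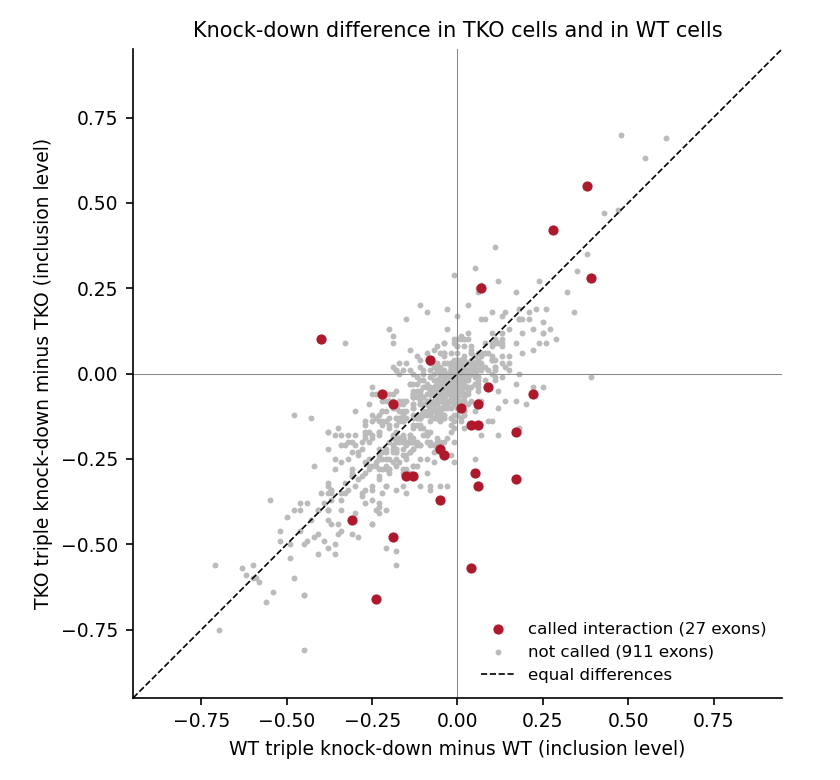
Knock-down minus untransfected difference in inclusion level in TKO cells (vertical axis) and in WT cells (horizontal axis), 1 point per exon event, with the 27 called interactions in red. Most points lie along the dashed line of equal differences, and 20 of the 27 red points lie below it.

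The knock-down comparisons themselves gave far more calls than their difference did, though by another test. A difference of differences carries the counting error of every library compared, so the smaller count does not measure how alike the lines are. By Fisher's exact test, at an adjusted p of at most 0.05 (Benjamini-Hochberg) and a difference of at least 0.1, 284 of the 938 events, 30.3%, were called in the TKO triple knock-down against TKO, where 12.3% of all tested events were. In the WT triple knock-down against WT 244 events, 26.0%, were called, where 11.2% of all tested events were. These calls were mostly losses of inclusion, with 253 lower and 31 higher in TKO cells and 205 lower and 39 higher in WT cells. The median difference was -0.07 in TKO cells and -0.05 in WT cells. Transfection and library type go with these differences and cannot be told apart from the knock-down. In TKO cells Cbx1 had more reads in the triple knock-down library than without transfection, across library types. The comparisons share no library. Called in both were 168 events, every one of them with the same sign, 19 higher and 149 lower. This count describes the 938 only, with no share over all tested events beside it. Inclusion reads per skipping read were 2.96 in the TKO triple knock-down library and 3.22 in the WT triple knock-down library, against 6.82 in TKO and 6.25 in WT. The part of this library-wide gap in the shared sign was not tested. Pearson's r between the knock-down differences was 0.795 across the 938 events, which share the library types and are not independent.

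The 6 exons with the largest difference in both lines, among those called in both, had close levels in TKO and WT cells. Levels run from 0 to 1, so large differences of the same sign leave the lines little room to differ. The close levels, and the lack of a call for the interaction, thus follow in part from the choice. Prepl, a prolyl endopeptidase-like protein, had an exon of 100 nt at 0.32 in the TKO triple knock-down and 0.92 in TKO, against 0.27 in the WT triple knock-down and 0.87 in WT, a difference of differences of 0. Where 2 levels stand for a line, the first is its triple knock-down and the second the untransfected cells. The 180-nt exon of Ctnnd1, which encodes the junction protein p120-catenin, was at 0.10 and 0.69 in TKO cells and at 0.05 and 0.67 in WT cells. The 20-nt exon of Rps24, a ribosomal protein of the small subunit, went the other way, at 0.84 and 0.15 in TKO cells and 0.82 and 0.21 in WT cells. All 3 exons had levels in the knock-downs that did not overlap the untransfected levels, in either line. Tra2a, a splicing activator, had its 306-nt exon at 0.13 and 0.74 in TKO cells and 0.10 and 0.68 in WT cells. Ankrd17 and Rpl10, a ribosomal protein of the large subunit, had differences of differences of 0.06 and -0.05. None of the 6 was called for the interaction. For Rpl10 the reads and the level had opposite signs, with a log2 ratio of odds ratios of 4.18 and an adjusted p of 0.00569 by Zelen's exact test.

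The TKO minus WT difference is the same contrast read the other way, within 1 library type each time. Without transfection 115 of the 938 events, 12.3%, were called in TKO against WT, where 4.57% of all 7695 tested events were, with 89 higher and 26 lower in TKO. Under the triple knock-down 15 events, 1.60%, were called, where 0.469% of the 4473 tested events were, with 9 higher and 6 lower in TKO cells. The knock-down libraries are shallower. With the reads of every exon scaled to the shallowest of the 4 libraries, a setting chosen after seeing the data, 6 of the 938 were called under knock-down and 37 without transfection, with 7 and 57 over the 4344. At full depth, adjusted over the same 4344 events, 15 and 123 of the 938 were called.

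The TKO minus WT difference of the exons called without transfection was smaller under knock-down. These 115 exons had a median absolute difference of 0.16, and in the knock-down libraries, which took no part in choosing them, the same exons had a median of 0.05 toward the same sign, with quartiles of 0.005 and 0.10. Of the 115, 86 kept the sign under knock-down, 26 had the opposite sign and 3 had no difference. A difference of at least 0.1 with the same sign was found under knock-down in 32. Exons chosen for a large difference tend to show a smaller one in other libraries, so the reverse choice stands beside it. The 15 exons called under knock-down had a median absolute difference of 0.18 there and of 0.12 toward the same sign without transfection, where 12 kept the sign and 10 of them had at least 0.1. Pearson's r between the TKO minus WT differences with and without knock-down was 0.243 across the 938 events.

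**Figure D2:**
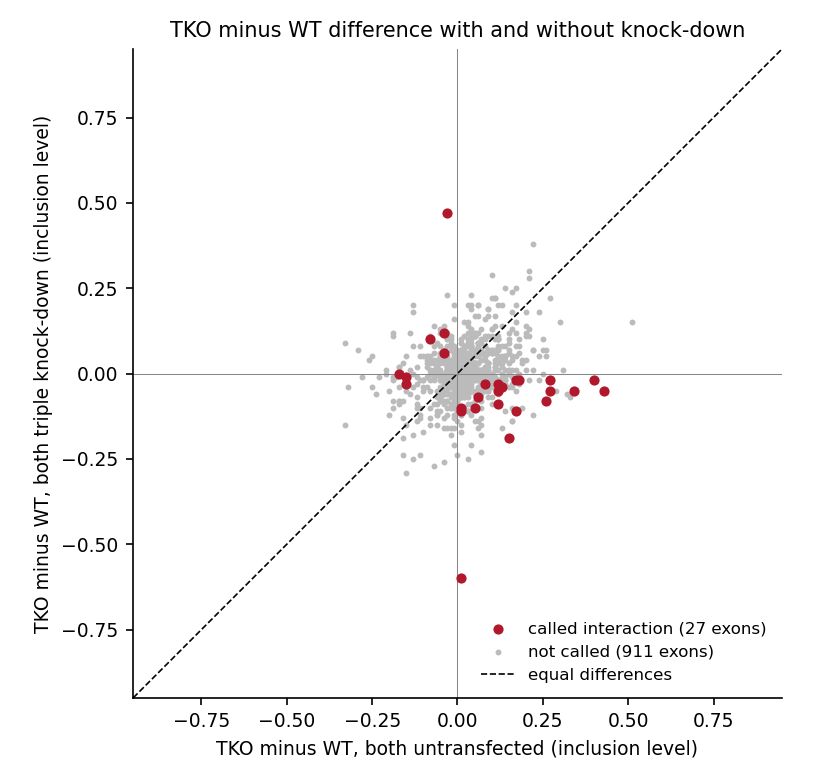
TKO minus WT difference in inclusion level with both lines under the triple knock-down (vertical axis) and with both untransfected (horizontal axis), 1 point per exon event, with the 27 called interactions in red. The cloud is wider along the horizontal axis, and red points to the right of 0 sit near or below 0 on the vertical axis.

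Both TKO against WT comparisons called 7 exons, all with the same sign in both, and none of these was called for the interaction. The count covers the chosen events only, with no share over all tested events beside it. Differences of the same sign in both pairs partly cancel in the difference of differences. The lack of a call for the interaction thus follows in part from the choice of these exons. Usp1, a deubiquitinase of DNA repair, had an exon of 220 nt at 0.71 in the TKO triple knock-down against 0.33 in the WT triple knock-down, and at 0.93 in TKO against 0.71 in WT. The 111-nt exon of Mtmr3, a phosphoinositide phosphatase, was at 0.56 against 0.28 under knock-down and at 0.62 against 0.41 without it. Inclusion of both exons was higher in TKO cells each time, as was that of exons in Faim and in the overlapping genes Cdk2 and Pmel. Mfge8, a secreted protein that binds apoptotic cells, had its 111-nt exon at 0.28 in the TKO triple knock-down against 0.52 in the WT triple knock-down, and at 0.04 in TKO against 0.20 in WT. Ehmt2 encodes G9a, a histone H3 lysine 9 methyltransferase. Its 102-nt exon was at 0.20 against 0.30 under knock-down and 0.23 against 0.42 without it. Mfge8 and Ehmt2 were lower in TKO cells in both pairs, and so was Atp13a3, a polyamine transporter.

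Among the 20 events called lower, TKO stood highest of the 4 levels in 14, and the TKO triple knock-down stood lowest of the 4 in 14. In 14 of the 20 the TKO minus WT difference was larger in size without transfection than under knock-down. The median TKO minus WT difference over the 20 was 0.14 without transfection and -0.05 under knock-down, and the median knock-down difference was -0.265 in TKO cells and 0.04 in WT cells. The knock-down differences of the lines had opposite signs in 11 of the 20. These are the levels that the calls rest on and are given as a description.

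**Figure D3:**
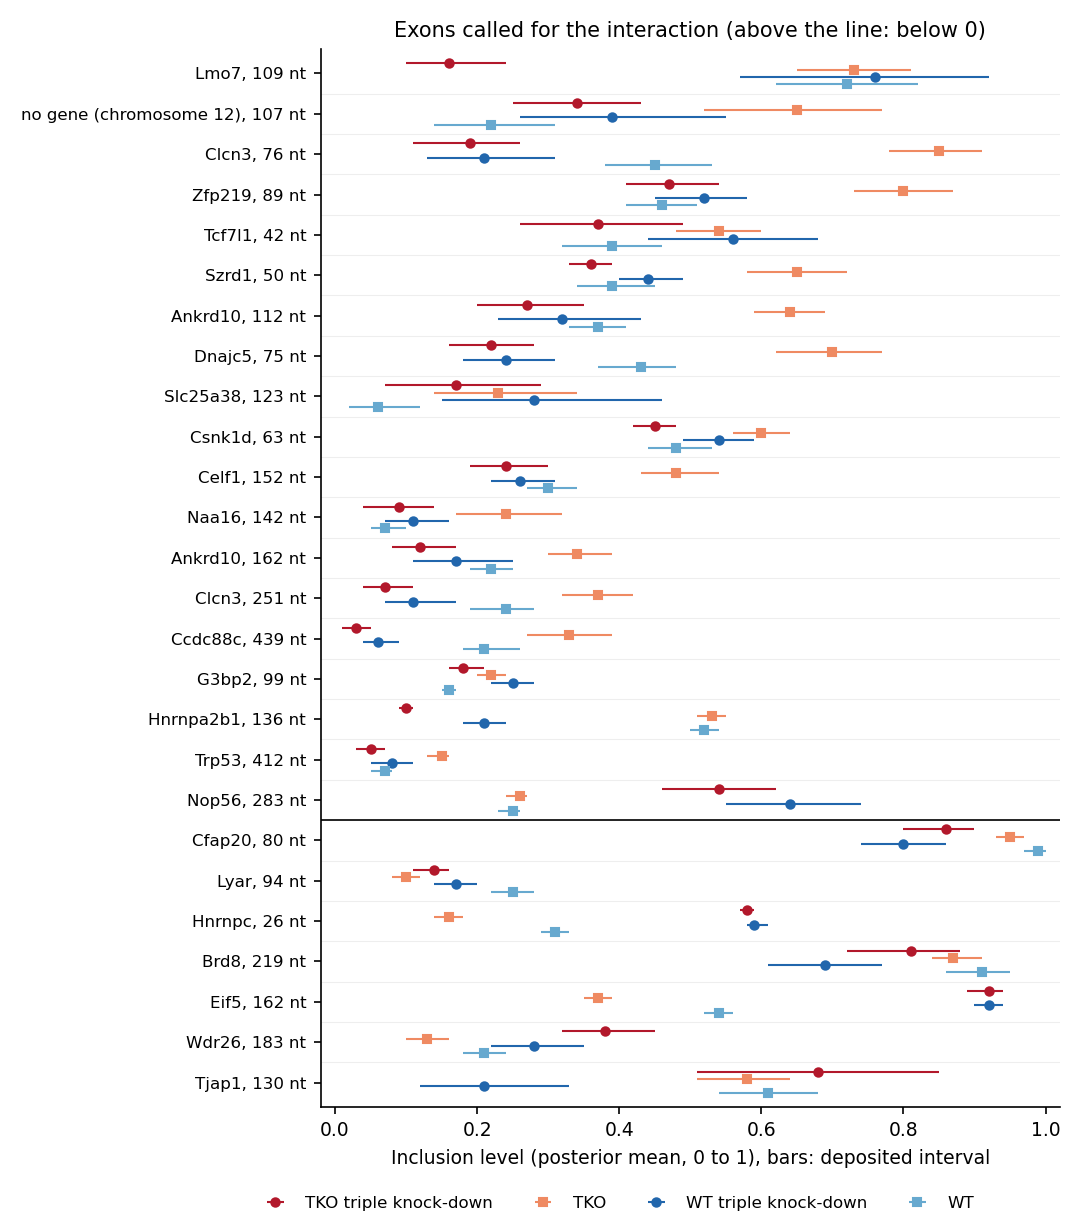
Inclusion level (horizontal axis, 0 to 1) of 26 called exons in the TKO triple knock-down, TKO, the WT triple knock-down and WT, with the deposited interval as a bar. Above the line, TKO (orange squares) stands to the right of the other 3 in 14 of 19 exons. In Lmo7 and Tjap1 a triple knock-down stands apart instead.

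The exon with the lowest value was in Lmo7, which encodes a LIM domain protein of cell junctions that binds actin (chr14:101931172-101931280 in mm10, 109 nt). Its level was 0.16 in the TKO triple knock-down, with a deposited interval of 0.10 to 0.24, against 0.73 in TKO, and 0.76 in the WT triple knock-down against 0.72 in WT. Only the TKO triple knock-down was low, and its interval did not overlap the other 3. It rested on 18 inclusion and 29 skipping reads, against 120 and 20 in TKO, 53 and 3 in the WT triple knock-down, and 83 and 17 in WT. The difference of differences was -0.61, with a combined interval of -0.838 to -0.382, and the adjusted p was 4.39e-05 by Zelen's exact test. In WT cells with 1 HP1 protein knocked down the level was 0.69 for HP1alpha, 0.56 for HP1beta and 0.65 for HP1gamma, so the TKO triple knock-down also stood below these 3.

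In the next exons the TKO library stood apart. Clcn3, a chloride and proton exchanger of endosomes, had its 76-nt exon (chr8:60914753-60914828) at 0.19 in the TKO triple knock-down and 0.85 in TKO, against 0.21 in the WT triple knock-down and 0.45 in WT. The difference of differences was -0.42, with an adjusted p of 0.0303 by Zelen's exact test. A longer form of this exon, 251 nt with the same end, had levels of 0.07, 0.37, 0.11 and 0.24 in the same order, and the events share reads. Both knock-down levels were close, while TKO was far above WT. Zfp219, a zinc finger factor, had its 89-nt exon (chr14:52009970-52010058) at 0.47 in the TKO triple knock-down and 0.80 in TKO, against 0.52 in the WT triple knock-down and 0.46 in WT. TKO alone was high here, with 297 inclusion and 20 skipping reads, and its interval of 0.73 to 0.87 did not overlap the other 3. The difference of differences was -0.39, with a combined interval of -0.516 to -0.264 and an adjusted p of 5.76e-05 by Zelen's exact test.

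Szrd1 had the most reads of the called exons at or below -0.3, with 419 inclusion and 501 skipping reads in the TKO triple knock-down. Its 50-nt exon (chr4:141120324-141120373) was at 0.36 there and 0.65 in TKO, against 0.44 in the WT triple knock-down and 0.39 in WT. Again only TKO was high, and the difference of differences of -0.34 had an adjusted p of 3.85e-07 by Zelen's exact test. Dnajc5, a co-chaperone of synaptic vesicles, had its 75-nt exon (chr2:181548926-181549000) at 0.22 and 0.70 in TKO cells against 0.24 and 0.43 in WT cells, a difference of differences of -0.29. Inclusion was lower under knock-down in both lines, and the drop was larger in TKO cells. Ankrd10 was called at 2 exons, of 112 nt at -0.32 and of 162 nt at -0.17, which have the same skipping reads in every library and so are not independent calls. The shorter was at 0.27 in the TKO triple knock-down and 0.64 in TKO, against 0.32 in the WT triple knock-down and 0.37 in WT, and the longer at 0.12 and 0.34 against 0.17 and 0.22. TKO stood highest at both. A 107-nt exon at chr12:110977664-110977770, which no gene of the table spans, was at 0.34 and 0.65 against 0.39 and 0.22, a difference of differences of -0.48 on 27 distinguishing reads in the WT triple knock-down.

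RNA-binding and RNA-processing genes were among the calls. Celf1 encodes a splicing regulator that binds GU-rich RNA, and its 152-nt exon (chr2:90987665-90987816) was at 0.24 in the TKO triple knock-down and 0.48 in TKO, against 0.26 in the WT triple knock-down and 0.30 in WT. TKO alone was high, and the difference of differences was -0.20 with an adjusted p of 5.76e-05 by Zelen's exact test. Hnrnpa2b1, which encodes hnRNP A2/B1, differed in another way. Its 136-nt exon (chr6:51461920-51462055) was at 0.10 in the TKO triple knock-down and 0.53 in TKO, against 0.21 in the WT triple knock-down and 0.52 in WT. The untransfected lines differed by 0.01, and the knock-down of TKO cells was the lowest, with 425 inclusion and 1441 skipping reads. Its difference of differences was -0.12, with a combined interval of -0.162 to -0.0776 and an adjusted p of 6.30e-08 by Zelen's exact test. Nop56, a core protein of the box C/D snoRNPs, had levels of 0.54 and 0.26 in TKO cells against 0.64 and 0.25 in WT cells. Its combined interval, -0.236 to 0.016, was the one of the 27 that held 0. Reads of Nop56 were mostly for inclusion in every library, unlike these levels. Inclusion and skipping reads were 371 and 18 in the TKO triple knock-down and 1169 and 33 in TKO. In the WT triple knock-down they were 309 and 11, and in WT 1103 and 110. The rise in level under knock-down in TKO cells was not called by Fisher's exact test.

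The other events called lower were smaller or rested on fewer reads. Tcf7l1, a Wnt pathway factor that represses pluripotency genes in ES cells, had its 42-nt exon at 0.37 and 0.54 in TKO cells against 0.56 and 0.39 in WT cells, a difference of differences of -0.34 with an adjusted p of 0.0421 by Zelen's exact test. Here the knock-down libraries and the untransfected libraries had opposite orders of the lines. Slc25a38, the mitochondrial glycine carrier of haem synthesis, was called at -0.28 on 28 distinguishing reads in each of 3 libraries. Csnk1d, casein kinase 1 delta, had a 63-nt exon at 0.45 and 0.60 in TKO cells against 0.54 and 0.48 in WT cells, with 481 inclusion and 431 skipping reads in the TKO triple knock-down. The 412-nt event of Trp53, which encodes p53, was at 0.05 and 0.15 in TKO cells against 0.08 and 0.07 in WT cells. In both genes TKO was the highest of the 4 levels. The reads of Trp53 had another order, with 313 inclusion and 242 skipping reads in TKO and 48 and 35 in the WT triple knock-down. There were 41 and 57 in the TKO triple knock-down and 113 and 283 in WT, where the share of inclusion was lowest. The stress granule protein G3bp2 had its 99-nt exon at 0.18 and 0.22 against 0.25 and 0.16. Naa16, a subunit of the NatA N-terminal acetyltransferase, and Ccdc88c, a Dishevelled-binding protein, were called at -0.19 and -0.15.

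Of the 7 events called higher, 4 had TKO as the lowest of the 4 levels. Hnrnpc, which encodes hnRNP C, a protein that binds uridine tracts in new transcripts, had the most reads of any call in both triple knock-downs. Its 26-nt exon (chr14:52098015-52098040) was at 0.58 in the TKO triple knock-down and 0.16 in TKO, against 0.59 in the WT triple knock-down and 0.31 in WT. The knock-downs differed by 0.01 and TKO was lower than WT, on 257 inclusion and 551 skipping reads in TKO and 4053 and 2220 in its knock-down. The difference of differences was 0.14, with a combined interval of 0.107 to 0.174 and an adjusted p of 4.71e-17 by Zelen's exact test. Eif5, the GTPase activator of translation start, had its 162-nt exon (chr12:111542680-111542841) at 0.92 and 0.37 in TKO cells against 0.92 and 0.54 in WT cells. Skipping reads were few, 16 and 80 in TKO cells and 13 and 18 in WT cells. Inclusion reads were 1737 and 1500 in TKO cells and 1393 and 2436 in WT cells. Nearly all distinguishing reads were thus for inclusion in every library, unlike the levels of 0.37 and 0.54. On the share of these reads the difference of differences of Eif5 was 0.0434, under the size needed for a call. Lyar, a nucleolar protein, had its 94-nt exon at 0.14 and 0.10 in TKO cells against 0.17 and 0.25 in WT cells. Wdr26, a subunit of the CTLH ubiquitin ligase, had its 183-nt exon at 0.38 and 0.13 against 0.28 and 0.21. In both, the order of TKO and WT without transfection was TKO below WT.

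In the remaining 3 the WT triple knock-down stood lowest. Tjap1, a tight junction protein, had the highest value of the 938, a difference of differences of 0.50 with a combined interval of 0.279 to 0.722 and an adjusted p of 0.00463 by Zelen's exact test. Its 130-nt exon (chr17:46271800-46271929) was at 0.68 in the TKO triple knock-down and 0.58 in TKO, against 0.21 in the WT triple knock-down and 0.61 in WT. The WT triple knock-down alone was low, on 26 inclusion and 18 skipping reads. The single knock-downs of WT cells had levels of 0.51, 0.52 and 0.71 for HP1alpha, HP1beta and HP1gamma, and with one of them, or their sum, in place of the WT triple knock-down the value lay between 0 and 0.20 and was not called. Brd8, a bromodomain subunit of the Tip60 acetyltransferase complex, had a 219-nt exon at 0.81 and 0.87 in TKO cells against 0.69 and 0.91 in WT cells. Cfap20, a protein of cilia, had an 80-nt exon at 0.86 and 0.95 against 0.80 and 0.99, and its difference of differences of 0.10 was at the limit of size. Neither was called on the share of distinguishing reads.

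The WT triple knock-down was the shallowest library, and the single knock-downs of WT cells, made with 1 siRNA at 90 nM, give the spread of levels among libraries of the same type and line, though not of the same siRNA. Over the 937 events listed in all 4 WT knock-down libraries the median SD among them was 0.0236, and the 90th percentile 0.0685. The level of the WT triple knock-down was the highest of the 4, or tied, in 18 of the 20 events called lower, against 40.3% of the 937. It was the lowest, or tied, in 4 of the 7 called higher, against 30.7% of the 937. The calls were made with this library, so this is a description of them. The TKO triple knock-down lay outside the range of the 4 WT knock-downs in 13 of the 27 and in 47.6% of the 937.

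**Figure D4:**
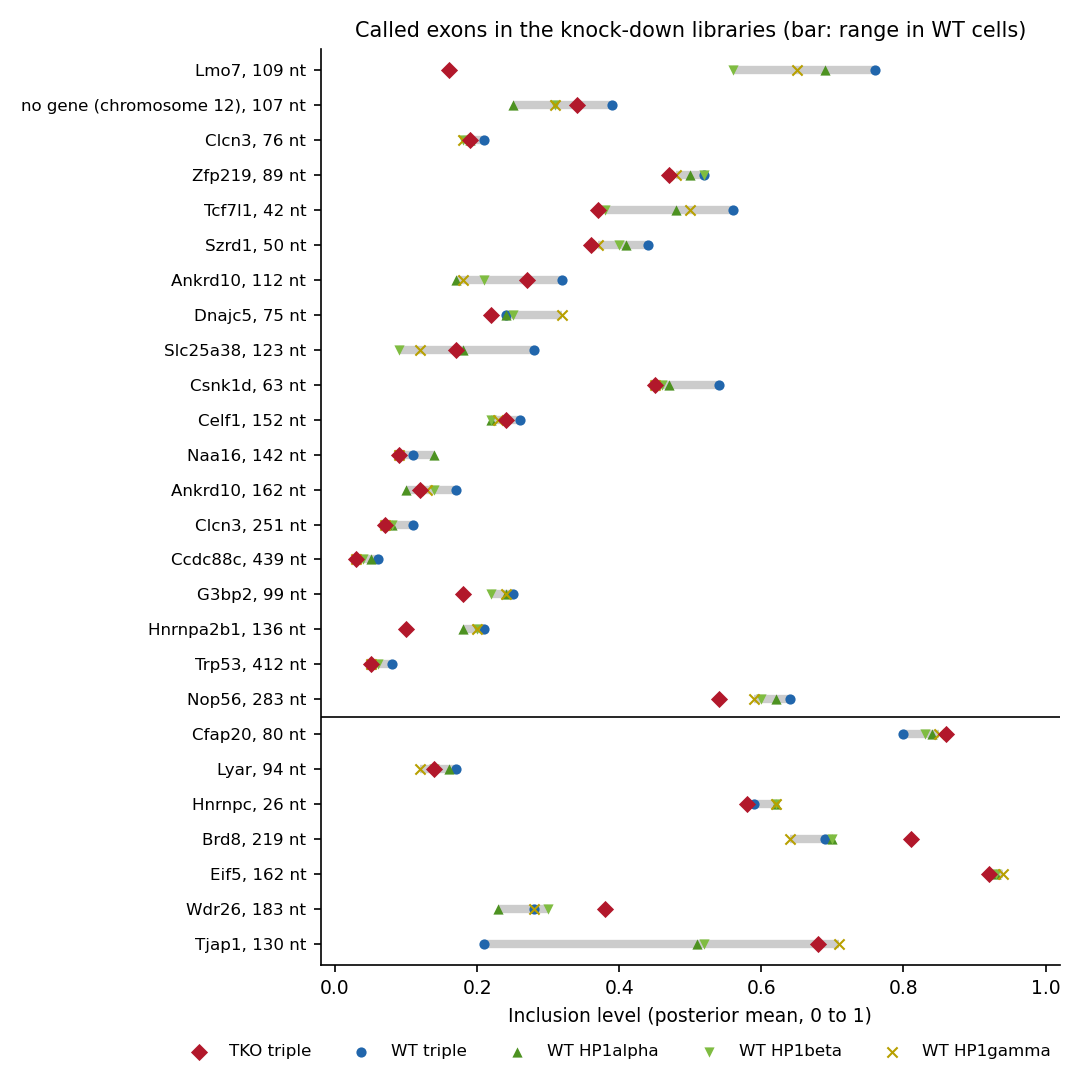
Inclusion level (horizontal axis, 0 to 1) of 26 called exons in the TKO triple knock-down (diamond) and in the 4 knock-down libraries of WT cells, whose range is the grey bar. The diamond lies outside the bar in 12 exons, and by far in Lmo7, while in Tjap1 the WT triple knock-down is far from the other 3 WT libraries.

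With another WT knock-down library in place of the triple one, 12 of the 27 events were called in every case: with HP1alpha, HP1beta or HP1gamma alone and with the summed reads of all 3. They were the 76-nt exon of Clcn3, Lmo7, Zfp219, Szrd1, Dnajc5, Celf1, Naa16, Ccdc88c and G3bp2 among the lower, and Lyar, Hnrnpc and Brd8 among the higher. In 9 of the 27 the call was lost each time, among them Tcf7l1, Slc25a38, Nop56, Trp53, Cfap20, Tjap1, the 112-nt exon of Ankrd10 and the 251-nt form of Clcn3. Csnk1d and Wdr26 were called in 2 of the 4 cases, and Eif5, Hnrnpa2b1, the 162-nt exon of Ankrd10 and the chromosome 12 exon in 3 of 4. The sign stayed the same in all 27 with HP1alpha or HP1beta and in 26 with HP1gamma, where Tjap1 was at 0. These substitutes share the TKO, TKO triple knock-down and WT libraries with the original comparison.

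The called exons had a median length of 112 nt, from 26 to 439 nt, with 108 nt over the 938 and 117 nt over the 4344. The length was a multiple of 3 in 9 of the 27, in 53.3% of the 938 and in 45.3% of the 4344. The median upstream intron was 2345 nt in the 27 and 1453 nt in the 938, and the median downstream intron 1402 nt and 1553 nt. Near the read limit, the 98 events whose smallest class had 3 reads had a median absolute difference of differences of 0.04, as had the 138 events with 2 reads, just outside the rule. The share called was larger with more reads. Called were 2 of 170 events with 3 to 4 reads in the smallest class, 5 of 272 with 5 to 9, 9 of 314 with 10 to 29, and 11 of 182 with 30 or more.

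Gene lists for splicing, chromatin and cell structure had medians near that of all 938 events. Of all 938 events 2.88% were called, and of the 4344 1.61%. With so few events per list, the calls in each are a description, and a list with none called is no result about its genes. Over 30 events of hnRNP and other splicing regulators the median was -0.02, with Hnrnpc called higher and Celf1 and Hnrnpa2b1 called lower. Over 21 events of SR proteins and their regulators, which bind exonic enhancers, the median was -0.02 with none called, and over 8 of the core spliceosome and RNA helicases it was 0 with none called. Chromatin and DNA methylation regulators had 37 events, a median of -0.01 and Brd8 called higher. Cytoskeleton, adhesion and polarity genes had 41 events and a median of -0.01, with Tjap1 called higher and Lmo7 lower, both ends of the whole range. Translation and ribosome genes had 22 events, a median of -0.005 and Eif5 called higher. The list of pluripotency genes had 3 events, Tbx3 at -0.13, Trp53 at -0.11 and Rif1 at -0.02. Its median of -0.11 is thus the value of Trp53, which was called lower. Germline genes silenced by promoter methylation, differentiation markers and interferon response genes had no event among the 938. The 2 events of Cbx5, the HP1alpha gene, had values of 0.01 and 0.08, and the 1 event of Dnmt3b, at 0.24 and 0.27 in TKO cells against 0.33 and 0.34 in WT cells, had -0.02. None of these 3 was called.

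**Figure D5:**
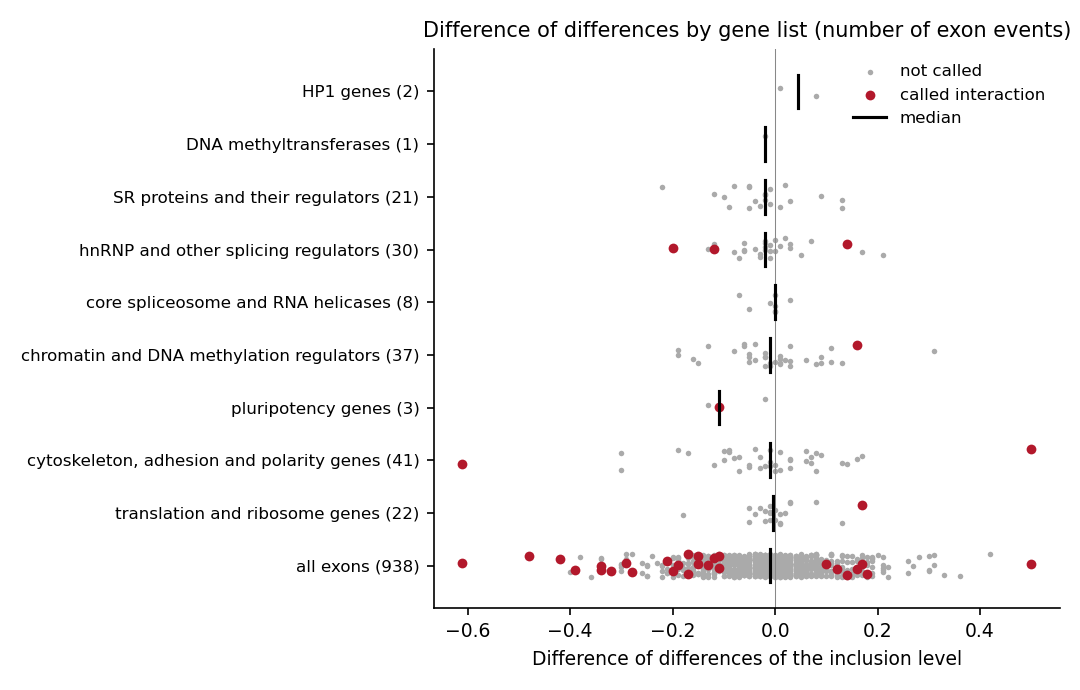
Difference of differences (horizontal axis) of each exon event by gene list, with the number of events in brackets, the median as a black line and called interactions in red. List medians lie within 0.05 of 0, except for the pluripotency list, whose median over 3 events is the Trp53 value of -0.11. The ends of the range, Lmo7 and Tjap1, are both in the cytoskeleton, adhesion and polarity list.

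Several large values were not called. Wiz, a zinc finger partner of G9a, had its 390-nt exon at 0.61 and 0.52 in TKO cells against 0.52 and 0.85 in WT cells. Its difference of differences of 0.42 had an adjusted p of 0.123 by Zelen's exact test. Atp2a3, a calcium pump, Cobl, an actin nucleator, Ndufaf6, a complex I assembly factor, and an exon in the overlapping genes Pbrm1 and Smim4 had values from 0.31 to 0.36 that did not pass. On the lower side the overlapping genes Chtf8 and Derpc had -0.40, the NEDD8 protease Senp8 -0.38, Ilrun -0.34 and the SUMO protease Senp6 -0.30. Senp8 was at 0.09 and 0.65 in TKO cells against 0.15 and 0.33 in WT cells, on 29 distinguishing reads in the TKO triple knock-down. A 1541-nt event spanned by Prn and the prion gene Prnp had levels of 0.16 and 0.97 in TKO cells against 0.01 and 0.46 in WT cells, hence -0.36. Its reads went the other way, with a log2 ratio of odds ratios of 3.87 and an adjusted p of 0.012 by Zelen's exact test, so it was not called.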

How the data were processed

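RNA of 8 samples in 4 groups was used, with 6 samples in 3 single knock-down groups as substitutes. Per the submitters' processing notes, TopHat2, Bowtie2 and mm10 were used. Per the file headers, the files are MISO summaries of skipped exons. The inclusion level that the authors deposited is the posterior mean of a fraction from 0 to 1, with an interval whose level is not stated. Deposited counts of reads for inclusion alone and skipping alone were read from each event's class counts. How each class enters the level could not be examined, so level and reads can differ. Of 10873 events, 10512 lay in exactly 1 gene of the GRCm38.p6 table, 248 in none and 113 in several; strand was not used.

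Tests ran in Python 3.11.15 with scipy 1.17.1, and the interaction test was checked on simulated reads. These reads had counting error only, and the level was set to the share of inclusion reads. The check therefore does not cover spread between libraries or the deposited level. Odds ratios had 0.5 added to each class. The combined interval adds the half-widths of the 4 deposited intervals in quadrature. RPM scales the reads of a gene's largest event to the library's event reads, with exact Poisson 95% intervals that cover counting error only.

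Exons named were, with 1 event per gene: up to 12 called per direction, the 5 largest not called, exons called in both TKO against WT or both knock-down comparisons, HP1 and methyltransferase events, and called members of the lists. The other called exons are named besides, except 1 that is counted but not reported here or drawn by name. Members and lists were chosen with earlier results of these data known. Alternatives covered read minimums, size, level, test, 1 event per gene and the WT knock-down library. No exon sequence was used.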

Additional observations from a re-analysis of the deposited data

Results flagged for a closer look

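The knock-down difference differed between TKO and WT cells in 27 exon events by Zelen's exact test, adjusted over 4344 events (Benjamini-Hochberg), together with a size of at least 0.1 and the same sign in reads and level. By the adjusted p alone 47 of the 938 passed. Among the 14 events with TKO as the highest of the 4 levels, the differences of differences were -0.48 for the chromosome 12 exon, -0.42 and -0.17 for the Clcn3 forms, -0.39 for Zfp219, -0.34 for Szrd1, -0.32 and -0.17 for the Ankrd10 exons, and -0.29 for Dnajc5. The rest of these were Csnk1d at -0.21, Celf1 at -0.20, Naa16 at -0.19, Ccdc88c at -0.15, Hnrnpa2b1 at -0.12 and Trp53 at -0.11. In the other 6 called lower, the WT triple knock-down was the highest of the 4 levels. Among them were Lmo7 at -0.61, Tcf7l1 at -0.34, Slc25a38 at -0.28, G3bp2 at -0.13 and Nop56 at -0.11. Of the 7 called higher, Tjap1 had 0.50, Wdr26 0.18, Eif5 0.17, Brd8 0.16, Hnrnpc 0.14, Lyar 0.12 and Cfap20 0.10. The siRNA doses differed between the lines, and the part of the dose in these differences was not tested.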

How the results depend on the processing

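Read minimums, the size limit, the level, the test, 1 event per gene and the WT knock-down library were varied. The calls higher, 7 of 938, became 4 with at least 10 reads of each class, and 1 with a difference of at least 0.2, where the calls lower, 20, became 11. With reads scaled to the shallowest of the 4 libraries, chosen after seeing the data, 2 higher and 9 lower were called, all 11 among the 27, and the members called fell to 37 in TKO against WT (123 at full depth over the same 4344 events), 6 in TKO against WT under knock-down (15), 186 in the TKO triple knock-down (285) and 150 in the WT triple knock-down (244). Fewer reads enter these tests by construction. The other settings gave 5 to 10 higher and 16 to 28 lower, a median of -0.02 to -0.01, and 72.5% to 80.0% of exons keeping the TKO minus WT sign, against 74.8%. With the summed single knock-downs 38 were called, 18 of them among the 27, and with 1 single knock-down 26 to 30, 15 or 16 of them among the 27. With the share of distinguishing reads as the level, the Prn and Prnp event reversed to 0.679, and calls of Eif5, Brd8, Cfap20 and Nop56 were lost; the cause was not tested. The Wald test lost Tcf7l1 and Cfap20. The median exon had 92 distinguishing reads in the WT triple knock-down, and how many calls deeper libraries would give was not tested. No paired analysis was possible because the deposited files pool the replicates, and for the same reason no replicate could be left out.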
